A study of Mus musculus with 7 samples.

Results

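The Siglec family and Cd33 were followed in retinal microglia (rMG) from mice labelled Irf8 knockout (KO), with and without laser injury. The 7 genes Siglech, Siglec1, Siglece, Siglecf, Siglecg, Cd22 and Cd33 were taken by symbol from the 40743 genes of the deposited RNA-seq table. The comparison asks how these receptors differ between rMG of untreated retinae and rMG taken during choroidal neovascularisation (CNV), the growth of choroidal vessels that follows laser burns.

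All 7 libraries are labelled Irf8 KO, and the paper describes the unlasered mice as adult. The methods give a C57BL/6J background and the genotype Irf8-/- Cx3cr1GFP/+, in which 1 copy of the fractalkine receptor gene is replaced by GFP. Both groups share this genotype. The unlasered group had 3 libraries, made from whole retinae. The lasered group had 4 libraries, made 7 days after 3 to 6 laser spots per eye from the central 70% of the retinae only, so laser injury and retinal region cannot be told apart. Each library pooled 3 to 4 mice, with an average of 10000 sorted cells of the phenotype CD45low, CD11b+, Cx3cr1GFP/+, Ly6C-, Ly6G-. Libraries of wild-type mice were not analysed here.

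Siglecs are lectins of the cell surface that bind sialic acid, the sugar that caps many glycans of vertebrate cells. Most of them carry inhibitory tyrosine motifs (ITIMs) in their tails and recruit the phosphatases encoded by Ptpn6 and Ptpn11, whereas Siglec-H has no such motif and signals through the adaptor encoded by Tyrobp. In the nervous system microglia are the main cells that carry Siglec-H, Siglec-E and CD33, while Siglec-G and CD22 are best known from B cells and Siglec-F from eosinophils and alveolar macrophages.

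The libraries held between 20427558 and 36022954 reads in the unlasered group and between 37133297 and 45919042 in the lasered group. Values are read counts scaled to a common library total (CPM), and 3 reads, taken as the floor, corresponded to between 0.0653 and 0.147 CPM. Reads are not independent molecules, so the floor covers counting error only. Reads listed jointly for Irf8 and an overlapping gene, Gm20388, lay between 463 and 582 CPM in the 7 libraries. The row is joint, so it does not give the reads of Irf8 alone and cannot test the label. Values per gene do not show whether these reads come from a remaining part of a deleted gene. The summed level of 9 microglial markers was 24480 to 29206 CPM in unlasered and 22181 to 29945 CPM in lasered libraries, although Sall1, a transcription factor of microglia, did not exceed 1.36 CPM. Tmem119 was 1175 to 1232 CPM and P2ry12 412 to 569 CPM in unlasered libraries, against 1189 to 1739 and 244 to 404 CPM in lasered libraries. The sum of 15 rod markers differed between the groups. It was 2274, 20116 and 5807 CPM in unlasered libraries 1, 2 and 3 and 335 to 1040 CPM in lasered libraries. Of the 15 markers, 14 were called lower by the test described below, beside 3.07% of all genes tested. The part of rod RNA in the results below was not tested.

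All but 1 of the genes lie on chromosome 7 of GRCm38, and Siglec1 lies on chromosome 2. Siglecf (ENSMUSG00000039013, chr7:43351341-43359531, plus strand), Siglecg (ENSMUSG00000030468, chr7:43408204-43418358, plus strand), Cd33 (ENSMUSG00000004609, chr7:43524216-43544428, minus strand) and Siglece (ENSMUSG00000030474, chr7:43651070-43660161, minus strand) form a cluster. Cd22 (ENSMUSG00000030577, chr7:30865402-30880342, minus strand) and Siglech (ENSMUSG00000051504, chr7:55768178-55778925, plus strand) lie on either side of it. Siglec1 (ENSMUSG00000027322) spans chr2:131069220-131086765 on the minus strand. All 7 are annotated as protein-coding, and none of them shared reads with another gene in the deposited table. Of the stretches of 50 bases in their exons, the share also found in another gene ranged from 0% in Siglece to 7.84% in Cd22. In Siglecg, whose stretches partly matched Siglecf, this share was 4.64%. The exons of Cd22 overlap 479 bases of the antisense gene Gm29439, and the library kit does not mark strand, so reads of the pair cannot be told apart there.

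The 250 bases before the transcript start that RefSeq gives (GRCm38.p6) were available for 6 of the 7 genes. For Siglecf and Siglece this start is also the start of the locus given above. For Siglecg and Siglech it lies 35 and 6 bases inside that locus, and for Cd22 and Cd33 it lies 1314 and 11257 bases inside, so the windows of these 4 genes overlap their own loci. Siglecf and Cd33 shared a run of 16 bases that occurred in 2 of 32851 promoter windows, those of these 2 genes. It is shown because Siglecf rose after laser injury and Cd33 did not pass the test. The run is in capitals in the window of Siglecf (chr7:43351091-43351340, plus strand), where it begins 27 bases before the RefSeq start, and in the part of the Cd33 window outside annotated exons (chr7:43533172-43533364, minus strand), where it begins 157 bases before the RefSeq start and within the longer Cd33 locus.
Siglecf: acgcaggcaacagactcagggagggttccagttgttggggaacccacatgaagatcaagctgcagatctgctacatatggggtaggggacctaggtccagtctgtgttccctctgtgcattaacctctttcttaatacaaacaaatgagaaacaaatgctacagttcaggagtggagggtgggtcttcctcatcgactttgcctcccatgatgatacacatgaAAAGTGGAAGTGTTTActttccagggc
Cd33: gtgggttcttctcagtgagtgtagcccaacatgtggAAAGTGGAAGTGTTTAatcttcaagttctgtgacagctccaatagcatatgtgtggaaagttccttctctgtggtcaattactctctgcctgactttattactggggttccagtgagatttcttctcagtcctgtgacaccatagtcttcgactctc
The motif GAGGAAG, of the kind that ETS factors such as SPI1 bind, was searched on both strands, and read from the other strand it is CTTCCTC. It occurred in 10.6% of all windows and in 4 of the 6 windows here, those of Siglece, Siglecf, Siglecg and Cd33. The copy of Cd33 begins 226 bases before the RefSeq start, in annotated exon bases of Cd33 that are left out of the part shown above. Siglece held 2 copies, and its window (chr7:43660162-43660411, minus strand) is shown for this reason, with both copies in capitals.
Siglece: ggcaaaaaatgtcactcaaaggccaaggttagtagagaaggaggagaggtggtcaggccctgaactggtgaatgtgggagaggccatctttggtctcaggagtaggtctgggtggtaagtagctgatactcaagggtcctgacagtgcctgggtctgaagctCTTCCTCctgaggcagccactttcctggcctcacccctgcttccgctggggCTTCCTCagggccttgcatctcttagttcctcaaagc

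After laser injury 3 of the 7 genes rose, namely Siglec1, Siglecf and Siglece, and 0 fell. The values of Siglech, Siglecg, Cd22 and Cd33 overlapped between the groups and did not pass the test. All 7 genes passed the filter on low values and were among the 17496 genes tested with limma, with p-values adjusted by the Benjamini-Hochberg method. Of all genes tested, 6.93% were called, 3.86% higher and 3.07% lower, and in 10.4% every lasered library lay above every unlasered library, as was the case for 3 of the 7. The median log2 fold change of CPM + 1 was 0.54 over the 7 genes and -0.014 over all genes tested. The 0.54 is the value of Siglecg, which had few reads, and without it the median of the other 6 was 0.30. Of the 7 genes, edgeR on recovered reads also called 3 higher and 0 lower, where it called 3.78% higher and 3.45% lower of all genes. DESeq2 called 3 higher and 0 lower as well, beside 6.73% and 6.52% of all genes. At an unadjusted limma p under 0.05, 3 were higher and 1, Siglech, was lower, where 11.0% of all genes were higher and 11.6% lower, 22.7% in all. As in any bulk sample, a lower level may mean fewer cells of a type or less RNA per cell, which cannot be told apart.

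**Figure D1:**
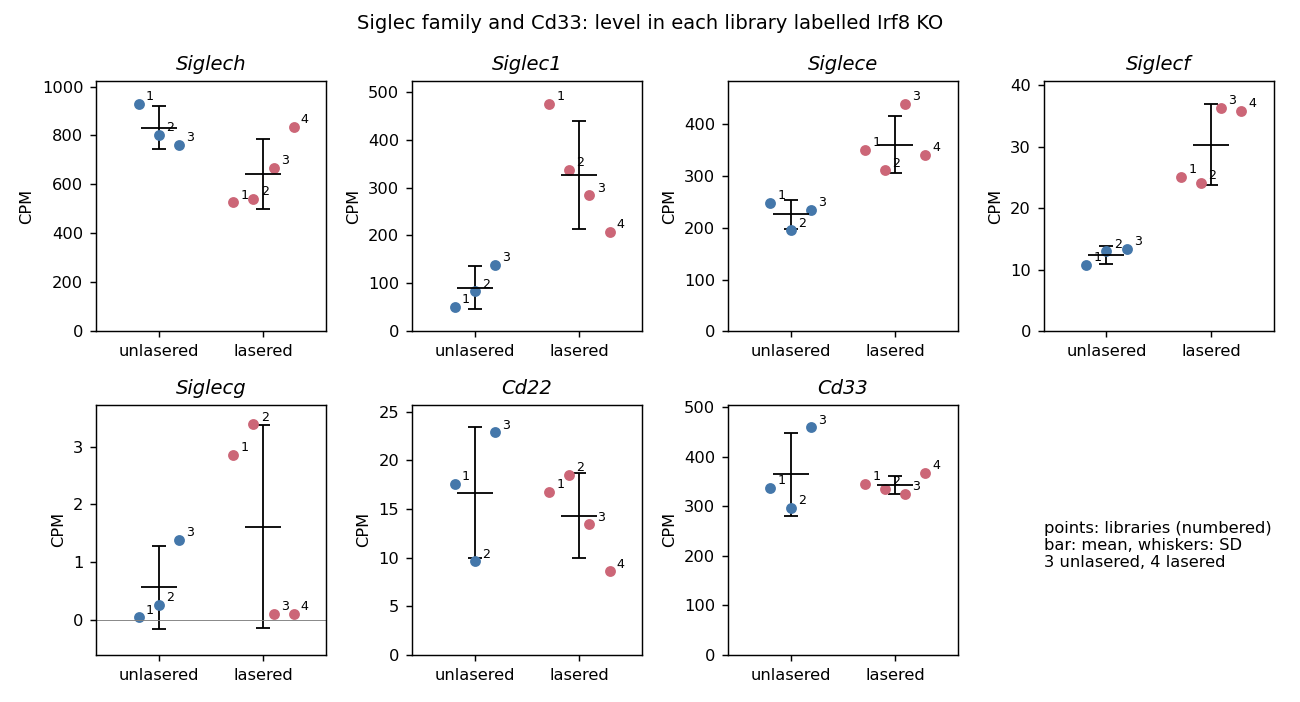
Level in CPM (vertical axis) of each of the 7 genes in the 3 unlasered (blue) and 4 lasered (red) libraries, numbered by replicate, with the group mean (bar) and SD (whiskers). All lasered points lie above all unlasered points for Siglec1, Siglece and Siglecf, and the groups overlap for Siglech, Siglecg, Cd22 and Cd33.

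Siglec1, or sialoadhesin, is a macrophage receptor with a long extracellular part and no ITIM, and it is known as an interferon-induced gene. Its level was 51.1, 83.7 and 138 CPM in unlasered libraries 1, 2 and 3 and 475, 338, 284 and 207 CPM in lasered libraries 1, 2, 3 and 4. Each lasered library lay above each unlasered library, but both groups were widely spread, with means of 91.0 ± 44.1 (SD, n = 3) and 326 ± 113 CPM (SD, n = 4). The fitted log2 fold change of CPM + 1 was 1.88 ± 0.35 (SE), or 3.68-fold with a 95% interval from 2.13 to 6.34, and the limma adjusted p was 0.0187. Without lasered library 2 or lasered library 3 the adjusted p was 0.0594 and 0.0503, and the log2 fold change was 1.84 and 1.92. With no filter on low values the adjusted p was 0.0517. The monocyte marker Ccr2 also had a higher mean in lasered libraries (8.72 and 59.1 CPM, log2 fold change 2.03, limma adjusted p 0.186), with overlap between the groups. The log2 fold changes of Plac8, Chil3 and Hp, the other genes tested in the monocyte list, were -0.88, -0.31 and -0.11, and none of them passed the test. Of the 4 monocyte genes tested, DESeq2 called 1 higher and 0 lower, beside 6.73% and 6.52% of all genes. By edgeR 0 were higher and 0 lower, beside 3.78% and 3.45%. The part of these cells in the Siglec1 result was not tested. Among all genes ordered by mean CPM, Siglec1 moved from rank 2045 in unlasered to rank 404 in lasered libraries. It was the gene with the largest fitted change of the 7.

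Siglecf encodes an ITIM-bearing receptor of eosinophils and alveolar macrophages. It measured 10.8, 13.02 and 13.4 CPM in unlasered libraries and 25.1, 24.1, 36.3 and 35.9 CPM in lasered libraries 1 to 4. The unlasered libraries were close together, and lasered libraries 3 and 4 were higher than lasered libraries 1 and 2. The means were 12.4 ± 1.44 CPM (SD, n = 3) and 30.4 ± 6.65 CPM (SD, n = 4). The log2 fold change was 1.21 ± 0.20 (SE), or 2.31-fold (95% interval 1.69 to 3.14), with a limma adjusted p of 0.0129, and it stayed called when any 1 library was left out (adjusted p 0.0234 to 0.0415). These levels rested on 220 to 484 reads in unlasered and 1083 to 1668 reads in lasered libraries. Eosinophil markers overlapped between the groups. The sum of 4 of them was 4.88 to 14.2 CPM in unlasered and 2.90 to 8.35 CPM in lasered libraries, most of it from the chemokine receptor gene Ccr3, while the granule protein genes Prg2 and Epx did not exceed 0.0584 and 1.03 CPM.

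Siglece encodes an ITIM-bearing receptor of neutrophils, macrophages and microglia. Its level was 249, 195 and 235 CPM in unlasered libraries and 350, 311, 440 and 342 CPM in lasered libraries 1 to 4. The groups did not overlap, and lasered library 3 was the highest of the 7. Means were 226 ± 27.8 CPM (SD, n = 3) and 361 ± 55.4 CPM (SD, n = 4), which gave a log2 fold change of 0.67 ± 0.15 (SE), or 1.59-fold (95% interval 1.26 to 2.003), with a limma adjusted p of 0.0337. This call depended on single libraries and on the filter on low values, without which the adjusted p was 0.0806. When 1 library was left out, only the fit without unlasered library 3 kept it (adjusted p 0.0465), and leaving out unlasered library 1 or 2 or any of lasered libraries 1 to 4 gave adjusted p-values from 0.0516 to 0.0944, with log2 fold changes from 0.56 to 0.74. Neutrophil markers were low in both groups, with a sum over 6 genes of 0.555 to 11.2 CPM in unlasered and 1.67 to 13.4 CPM in lasered libraries. Ly6g, the antigen used to gate neutrophils out, did not exceed 0.147 CPM, and S100a8 did not exceed 7.20 CPM. Of the neutrophil list, the chemokine receptor gene Cxcr2 was called higher, with 0.0292 to 0.147 CPM in unlasered and 1.05 to 12.9 CPM in lasered libraries (log2 fold change 2.43, limma adjusted p 0.0305). It reached 1 CPM in lasered libraries only and so passed the filter through the group where it is high, and its part in the Siglece result was not tested.

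Siglech encodes a receptor of microglia and plasmacytoid dendritic cells that lacks an ITIM. It had the highest CPM of the 7 genes in every library, with 930, 803 and 761 CPM in unlasered libraries and 527, 542, 669 and 836 CPM in lasered libraries 1 to 4. Lasered libraries 1, 2 and 3 lay below all unlasered libraries, and lasered library 4 lay above unlasered libraries 2 and 3. Group means were 831 ± 87.8 CPM (SD, n = 3) and 643 ± 143 CPM (SD, n = 4). The log2 fold change was -0.39 ± 0.17 (SE; 95% interval -0.78 to -0.0016), with an unadjusted p of 0.0492 and a limma adjusted p of 0.219, so the difference did not pass the test. The adjusted p ranged from 0.0786 to 0.46 with 1 library left out. Markers of plasmacytoid dendritic cells summed to 62.3 to 77.4 CPM in unlasered and 63.3 to 78.5 CPM in lasered libraries, so these sums overlapped, and Ly6d and Ccr9 did not exceed 1.71 and 18.9 CPM. The genes of this list differed among themselves. Of the 4 tested, Cox6a2 fell from a mean of 8.31 to 2.80 CPM (log2 fold change -1.30, limma adjusted p 0.00879), and edgeR and DESeq2 each called 2 lower, where limma, edgeR and DESeq2 called 3.07%, 3.45% and 6.52% of all genes lower. Pacsin1 was 9.30 and 1.90 CPM (limma adjusted p 0.0515), while Runx2, the gene of this list with the highest CPM in each library, was 34.6 and 51.8 CPM (limma adjusted p 0.197). The part of these cells in the lower mean of Siglech was not tested.

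Cd33 encodes a small Siglec of myeloid cells. It was 338, 297 and 460 CPM in unlasered libraries and 346, 336, 325 and 368 CPM in lasered libraries 1 to 4. The lasered values lay within the range of the unlasered ones, whose highest value came from unlasered library 3. Means were 365 ± 84.7 CPM (SD, n = 3) and 344 ± 18.2 CPM (SD, n = 4), and the log2 fold change was -0.062 ± 0.15 (SE), with a 95% interval from -0.41 to 0.28 and a limma adjusted p of 0.852. Without unlasered library 3 the log2 fold change was 0.12, and with median-of-ratios scaling it was 0.021, so its sign was not fixed.

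Cd22 and Siglecg encode ITIM-bearing receptors that restrain signalling of the B cell receptor. Cd22 was 17.6, 9.61 and 22.9 CPM in unlasered libraries and 16.8, 18.5, 13.4 and 8.59 CPM in lasered libraries 1 to 4. The groups overlapped throughout, with means of 16.7 ± 6.69 CPM (SD, n = 3) and 14.3 ± 4.37 CPM (SD, n = 4). Its log2 fold change was -0.18 ± 0.32 (SE), with a 95% interval from -0.91 to 0.55 and a limma adjusted p of 0.791. It was 0.076 without unlasered library 3 and 0.029 without lasered library 4.

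Siglecg was near the limit of detection in several libraries. It had 1, 9 and 50 reads, or 0.0490, 0.263 and 1.39 CPM, in unlasered libraries, and 126, 152, 5 and 4 reads, or 2.85, 3.39, 0.109 and 0.108 CPM, in lasered libraries 1 to 4. Lasered libraries 1 and 2 stood above the other 5, and unlasered library 1 lay under the floor of 3 reads. The means were 0.567 ± 0.719 CPM (SD, n = 3) and 1.61 ± 1.75 CPM (SD, n = 4), the log2 fold change was 0.54 ± 0.55 (SE; 95% interval -0.71 to 1.79) and the limma adjusted p was 0.621. The log2 fold change was 0.30 without unlasered library 1, 0.43 without unlasered library 2 and 0.86 without lasered library 3 or 4, and without any of the other 3 libraries Siglecg did not pass the filter on low values. By edgeR it was 1.45 (adjusted p 0.586), and the DESeq2 adjusted p was 0.522. A summed list of 5 monocyte markers was 70.1, 24.2 and 78.9 CPM in unlasered and 147, 196, 35.7 and 13.1 CPM in lasered libraries. The monocyte chemokine receptor gene Ccr2 in this list was 5.63, 6.37 and 14.2 CPM in unlasered and 81.5, 128, 19.7 and 7.57 CPM in lasered libraries, whereas Ly6c2 did not exceed 0.891 CPM. Plac8 of the same list was highest in unlasered libraries 1 and 3, at 47.0, 9.78 and 45.6 CPM in unlasered and 27.3, 39.6, 10.6 and 3.58 CPM in lasered libraries, and the median log2 fold change of the 4 tested monocyte markers was -0.21. The summed list and Siglecg were highest in lasered libraries 1 and 2, and the part of these cells in the Siglecg level was not tested.

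Cd22 was counted with 319 to 832 reads in each library. Of the B cell markers, Ms4a1, which encodes the surface protein CD20, did not exceed 1.32 CPM, and Cd79a, a chain of the B cell receptor, was 1.26 to 5.73 CPM in unlasered and 0 to 1.65 CPM in lasered libraries. The sum of 4 B cell markers was 9.43 to 25.8 CPM in unlasered and 20.3 to 23.6 CPM in lasered libraries, most of it from Cd79b, the other chain of that receptor. The part of B cells in the levels of Cd22 and Siglecg was not tested.

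**Figure D2:**
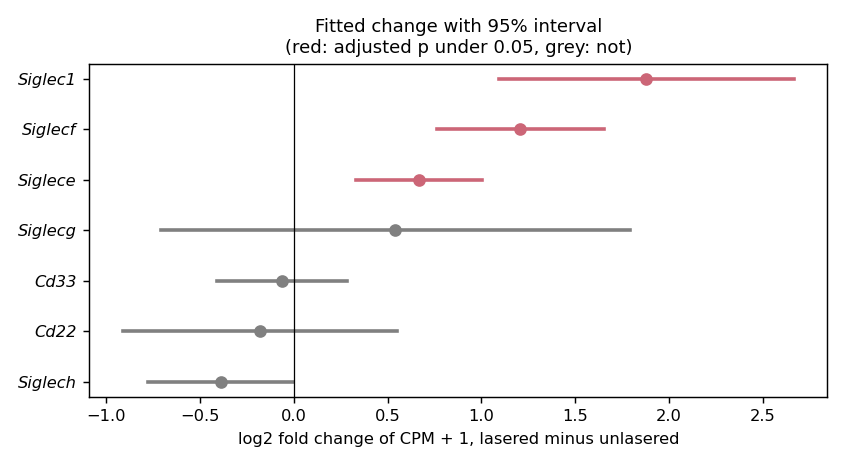
Fitted log2 fold change of CPM + 1 (horizontal axis, lasered minus unlasered) for each of the 7 genes, with its 95% interval as a line. The intervals of Siglec1 (1.09 to 2.66), Siglecf (0.76 to 1.65) and Siglece (0.33 to 1.00) lie above 0 and are drawn in red, while that of Siglech ends just below 0 at -0.0016 and its adjusted p missed the threshold.

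Levels of different genes were compared per kb of merged exons. In unlasered libraries the order of mean CPM per kb was Siglech (246 ± 25.96), Siglece (122 ± 15.0), Cd33 (46.9 ± 10.9), Siglec1 (12.7 ± 6.18), Siglecf (4.45 ± 0.514), Cd22 (3.31 ± 1.33) and Siglecg (0.118 ± 0.150; SD, n = 3). The ranges of neighbours in this order did not overlap, except those of Siglecf and Cd22. In lasered libraries the order was Siglece (195 ± 30.0), Siglech (190 ± 42.3), Siglec1 (45.6 ± 15.8), Cd33 (44.2 ± 2.34), Siglecf (10.9 ± 2.38), Cd22 (2.84 ± 0.867) and Siglecg (0.336 ± 0.365; SD, n = 4). There the ranges of Siglece and Siglech overlapped, as did those of Siglec1 and Cd33, so neither pair had a firm order. Siglecf and Cd22, which overlapped in unlasered libraries, were apart in lasered libraries.

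Summed over the 7 genes, the level was 467, 400 and 440 CPM per kb in unlasered and 469, 432, 533 and 523 CPM per kb in lasered libraries, so the sums overlapped. The composition differed more than the sum. Siglech made up 58.8%, 59.4% and 51.1% of the summed CPM per kb in unlasered libraries and 33.2%, 37.1%, 37.1% and 47.3% in lasered libraries 1 to 4, without overlap. Siglece made up 26.4% to 28.9% in unlasered and 35.3% to 44.7% in lasered libraries. The share of Siglec1 was 1.53% to 4.40% in unlasered and 5.55% to 14.2% in lasered libraries, and that of Cd33 overlapped between the groups at 9.30% to 13.4% and 7.86% to 10.01%. Shares of a sum move against each other, so these are not independent of the levels above.

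The ratio of Siglech to Siglec1 in CPM per kb was 38.4, 20.3 and 11.6 in unlasered libraries and 2.35, 3.39, 4.97 and 8.51 in lasered libraries 1 to 4. It was lower in each lasered library than in each unlasered one. The ratio of Siglech to Siglece was 2.04, 2.25 and 1.77 in unlasered libraries and 0.823, 0.951, 0.830 and 1.34 in lasered libraries, again without overlap. Its absolute value depended on the gene length used. With the longest coding transcript in place of merged exons, the ratio of the group means of Siglech and Siglece was 1.43 instead of 0.975 in lasered libraries, and Siglech ranked highest and Cd33 above Siglec1 in both groups. The share of Siglech was then 57.9% to 66.2% in unlasered and 40.3% to 55.0% in lasered libraries.

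**Figure D3:**
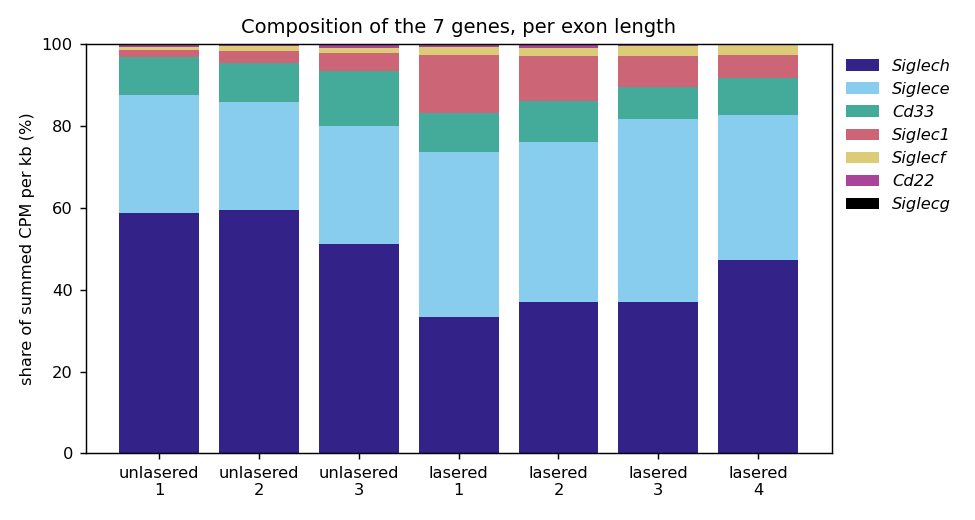
Share of each gene in the summed CPM per kb of the 7 genes (vertical axis, %) in each library, stacked. Siglech takes 51.1% to 59.4% in the unlasered and 33.2% to 47.3% in the lasered libraries, and the shares of Siglece and Siglec1 are larger in the lasered libraries.

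The genes most like each receptor over the 7 libraries were listed by Pearson's r of log2(CPM + 1) among 10282 genes with a mean of at least 10 CPM. The points share their libraries and depth, and with 7 points and so many genes high values are found for any pattern, so r is a description. The direction of a gene picked this way follows from the choice, so a call given for it adds no support. Siglec1 was most like Oas3 (r = 0.994), Myo1e (0.989) and Nceh1 (0.985). Oas3 was 5.87, 11.1 and 17.6 CPM in unlasered and 75.9, 47.4, 32.6 and 26.5 CPM in lasered libraries, with the same order of all 7 libraries as Siglec1, and it was called higher (log2 fold change 1.90, limma adjusted p 0.0298). Siglecf was most like Gm16897 (0.986), Tspan32 (0.981) and Acad10 (0.975), and Tspan32, a tetraspanin gene, rose from a mean of 24.0 to 62.4 CPM (log2 fold change 1.33, limma adjusted p 0.00605). For Siglece the closest were BC026585 (0.985), Serp1 (0.979) and Tlr2 (0.973), none of which passed the test (limma adjusted p 0.103, 0.138 and 0.151).

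Among the receptors that did not pass the test, Siglech was most like Pttg1ip (0.993), Slc35a2 (0.988) and Zfp764 (0.986). Slc35a2 encodes the transporter of UDP-galactose into the Golgi and was 39.4 to 42.3 CPM in unlasered and 30.4 to 40.2 CPM in lasered libraries. The closest genes to Cd33 were Pcnx (0.997), Bahd1 (0.990) and Stard8 (0.986), and Pcnx shared its high value in unlasered library 3, at 204 CPM against 65.2 to 113 CPM in the other 6 libraries. Cd22 was most like Zcchc7 (0.993), Ldlrad3 (0.970) and Acsl4 (0.969). Siglecg was most like Mitf (0.987), Grk6 (0.971) and Ino80d (0.968), with Mitf, a transcription factor gene, at 56.9 and 56.5 CPM in lasered libraries 1 and 2 and 23.5 to 42.6 CPM in the other 5.

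The supply of the ligand was examined with 33 genes of sialic acid metabolism, of which 27 were tested. In rMG 0 rose and 2 fell, Cmah and St3gal5, beside a background of 3.07% called lower, and their median log2 fold change was -0.11. At an unadjusted limma p under 0.05, 1 was higher and 5 were lower of the 27, against 22.7% of all genes in either direction. In the same list edgeR called 0 higher and 2 lower, beside 3.78% and 3.45% of all genes. DESeq2 called 1 higher and 3 lower, beside 6.73% and 6.52%. Cmah, whose enzyme converts N-acetylneuraminic into N-glycolylneuraminic acid, was 30.0, 15.5 and 28.6 CPM in unlasered and 11.1, 10.4, 10.1 and 9.08 CPM in lasered libraries. All lasered values lay below all unlasered ones (log2 fold change -1.15 ± 0.23, SE, limma adjusted p 0.0260). The call was kept without unlasered library 2, and with any other library left out the adjusted p was at most 0.0699 and did not pass.

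St3gal5, the synthase of the ganglioside GM3, was 132, 141 and 142 CPM in unlasered and 86.3, 76.9, 64.6 and 91.6 CPM in lasered libraries. The groups did not overlap (log2 fold change -0.80 ± 0.14, SE, limma adjusted p 0.0167), and the adjusted p was 0.0574 without lasered library 2. Part of the reads of its row were listed jointly with an overlapping gene, so with joint entries left out it was not tested, and 3 genes instead of 4 were then called lower over the 6 lists around the Siglec receptors. The sialyltransferase gene with the highest mean CPM was St3gal6, at 349 to 459 CPM in unlasered and 334 to 380 CPM in lasered libraries (log2 fold change -0.11, limma adjusted p 0.670). Cmas, which activates sialic acid to its CMP form, had the highest mean of the supply genes over the 7 libraries (group means of 53.9 and 57.4 CPM, limma adjusted p 0.741), although the CMP-sialic acid transporter gene Slc35a1 was higher in unlasered libraries (59.2 and 46.0 CPM, limma adjusted p 0.274). The lysosomal sialidase gene Neu1 had the highest mean of the genes that remove or modify sialic acid (111 and 102 CPM, limma adjusted p 0.665).

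Downstream of the receptors, 14 genes of Siglec signalling were tested, and 1 rose and 1 fell, beside 3.86% and 3.07% of all genes. The gene that fell, Sh2d1a, reached 1 CPM in unlasered libraries only, so it passed the filter on low values through the group where it is high. Tyrobp, the adaptor of Siglec-H, had the highest mean of these genes and was 1488, 1277 and 1099 CPM in unlasered and 1394, 1631, 1480 and 1423 CPM in lasered libraries. The groups overlapped (log2 fold change 0.21 ± 0.13, SE, limma adjusted p 0.366). Socs3, which encodes an inhibitor of cytokine signalling that also binds phosphorylated Siglec tails, was 68.4, 59.9 and 92.3 CPM in unlasered and 164, 166, 126 and 134 CPM in lasered libraries. It rose without overlap (log2 fold change 1.009 ± 0.18, SE, limma adjusted p 0.0160; 0.0562 without lasered library 2). Sh2d1a, a lymphocyte adaptor gene, was 3.92, 19.8 and 2.30 CPM in unlasered and 0.521, 0.757, 0.218 and 0.0269 CPM in lasered libraries, and it was highest in unlasered library 2, the library with the most rod RNA (log2 fold change -2.37 ± 0.55, SE, limma adjusted p 0.0374). The part of rod RNA in its fall was not tested. Left out in turn, each lasered library took the adjusted p of Sh2d1a above the threshold (0.0785 to 0.0925), and without any 1 unlasered library it failed the filter on low values.

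The Siglec receptors were set beside 11 inhibitory receptors of myeloid cells, most of which carry ITIMs. Of these 11 genes 2 rose and 1 fell, where 3.86% of all genes rose and 3.07% fell. Cd72, an inhibitory lectin-like receptor, was 163, 158 and 145 CPM in unlasered and 402, 409, 497 and 406 CPM in lasered libraries (log2 fold change 1.45 ± 0.12, SE, limma adjusted p 0.00150). Cd300lf, a lipid-binding receptor, was 14.2, 15.4 and 17.1 CPM in unlasered and 30.6, 38.0, 35.3 and 33.5 CPM in lasered libraries (log2 fold change 1.09 ± 0.15, SE, limma adjusted p 0.00749). Both stayed called when any 1 library was left out. Clec12a, a C-type lectin receptor gene, was 534, 341 and 284 CPM in unlasered and 154, 196, 155 and 229 CPM in lasered libraries (log2 fold change -1.04 ± 0.23, SE, limma adjusted p 0.0321). It was called in 2 of the 7 fits that left out 1 library, those without unlasered library 3 or lasered library 4, and the adjusted p was at most 0.0846 in the others. Sirpa, the receptor of CD47, had the highest mean of these 11 receptors (1681 and 1755 CPM, limma adjusted p 0.801).

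Of the Siglec genes outside the 7, Mag, a myelin protein gene, was 6.92 to 11.9 CPM in unlasered and 11.2 to 14.2 CPM in lasered libraries (limma adjusted p 0.467), and Siglec15 did not exceed 0.204 CPM and was not tested. Over all 60 genes of these lists, 53 were tested, 3 rose and 4 fell, beside 3.86% and 3.07% of all genes, with a median log2 fold change of 0.050. The 4 include Sh2d1a, which passed the filter through its high group only. Markers of border-associated macrophages, which in the brain carry Siglec-1, were lower in sum where Siglec1 was higher. Their sum over 6 genes was 1201 to 1304 CPM in unlasered and 650 to 975 CPM in lasered libraries, and all lasered sums were lower. Mrc1 was 520 to 779 CPM in unlasered and 295 to 519 CPM in lasered libraries, and Cd163 overlapped between the groups at 59.5 to 76.5 and 53.7 to 82.8 CPM. Of the 5 genes of this list that were tested 1 fell, the chemokine gene Pf4 (log2 fold change -0.89, limma adjusted p 0.0285), and their median log2 fold change was -0.016. The lower sum came from Mrc1 and Pf4. Cbr2 had a higher mean in lasered libraries, at 5.55 and 11.9 CPM (log2 fold change 1.06, limma unadjusted p 0.00785 and adjusted p 0.0799). In this list DESeq2 called 1 gene higher and 1 lower, beside 6.73% and 6.52% of all genes. By edgeR 0 were higher and 1 was lower, beside 3.78% and 3.45%. The part of these cells in the Siglec1 result was not tested.

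**Figure D4:**
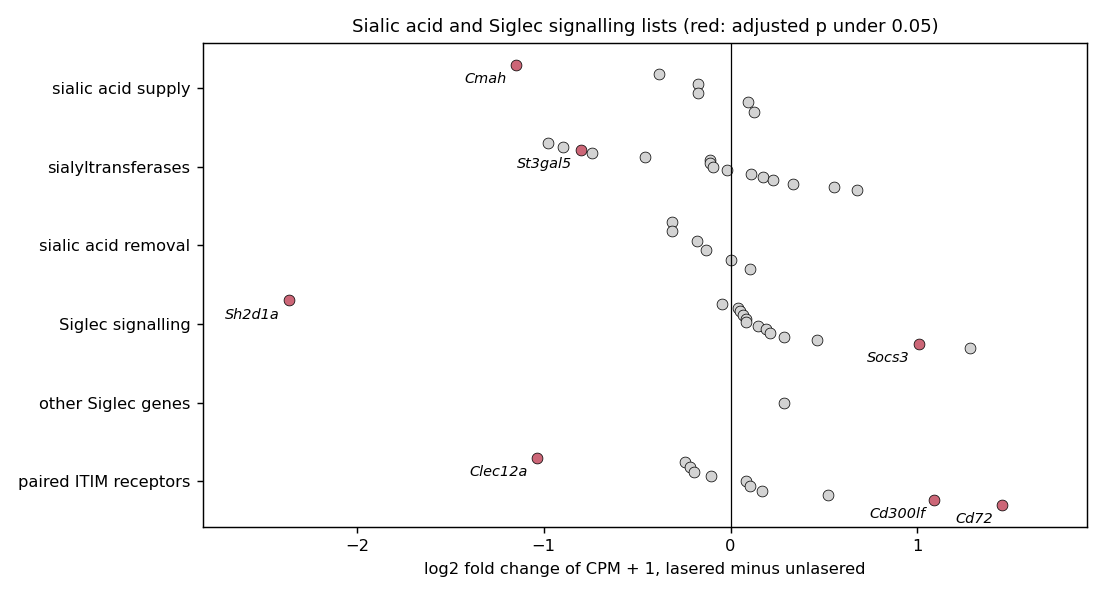
Fitted log2 fold change of CPM + 1 (horizontal axis, lasered minus unlasered) of the 53 tested genes in 6 lists around the Siglec receptors, 1 point per gene. Named red points passed the adjusted threshold: Socs3, Cd300lf and Cd72 rose, Cmah, St3gal5, Sh2d1a and Clec12a fell, and the other points are grey.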

How the data were processed

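RNA-seq of sorted rMG was analysed in 3 unlasered and 4 lasered libraries labelled Irf8 KO. The authors trimmed adapters with cutadapt, removed duplicates, mapped reads with Bowtie2 to GRCm38, summed them by gene (HTSeq, Ensembl version 90) and deposited 1 table. The deposited values are headed TPM but are CPM: for 100% of them a whole number of reads was recovered (within 6e-05 CPM), with the same step for every gene, so they are not scaled by gene length.

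The groups were tested on the log2(CPM + 1) scale in limma 3.58.1 (R 4.3.3, statmod 1.5.0), using its trended and robust moderation of the variance. Genes entered if 3 or more libraries reached 1 CPM. Tests were two-sided, p-values were Benjamini-Hochberg adjusted over all genes tested, and an adjusted p under 0.05 was a call. A log2 fold change on this scale understates the change of low genes. The labels do not say how the pools of mice were formed, so p-values measure the spread between these libraries. No pair of libraries held identical values. The model was also run on simulated counts with the same dispersion for every gene. The spread of rod RNA between the unlasered libraries was not simulated, so the calls here do not rest on that run.

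The 7 genes and all lists were chosen with earlier results of these data known. Named are the 7 genes, the 3 genes most correlated with each, the called genes and the gene with the highest mean of each pathway list, and the first markers of each marker list. Items not reported here were left out of their marker sums. The values of other genes (Cbr2, Cd79a, Cd79b, Chil3, Cox6a2, Cxcr2, Epx, Hp, Pacsin1, Pf4, Plac8, Runx2, Sall1, Siglec15, Slc35a1) and the promoter motifs were chosen after the data were seen. Alternatives were a pseudocount of 0.1, no filter, edgeR 4.0.16 and DESeq2 1.42.0 on recovered reads, median-of-ratios scaling, joint entries left out, a replicate block and each library left out. Another gene length was added after seeing the data. Lengths and loci came from GENCODE M21 (GRCm38). Python 3.11.15, pandas 2.3.3, numpy 2.4.6 and matplotlib 3.10.9 were used.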

Additional observations from a re-analysis of the deposited data

Results flagged for a closer look

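Of 49 levels in the lasered group that were checked for a library far from the other 3, 2 stood apart, where chance alone gives about 1 in 20. Cd72 was 497 CPM in lasered library 3 and 402 to 409 CPM in the others. The sum of the 4 B cell markers was 23.6 CPM in lasered library 4 and 20.3 to 20.7 CPM in the others.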

How the results depend on the processing

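Counts of calls changed more than directions. Of the 7 genes, 3 were called higher, 1 with no filter on low values and between 1 and 3 with 1 library left out (1, Siglecf, without lasered library 2 or 3), while 0 were called lower throughout, also with 1 library left out. Over all genes, 676 were called higher and 537 lower. With no filter these counts were 212 and 173, and by DESeq2 1177 and 1141. With 1 library left out they ranged from 150 to 815 and from 114 to 433. In the pathway lists 3 were called higher and 4 lower. The higher count was 6 by DESeq2 and 6 with median-of-ratios scaling, the lower count was 1 (St3gal5) with no filter, and with 1 library left out they ranged from 2 to 7 and from 0 to 2. Siglec1 and Siglece lost their call with no filter (adjusted p 0.0517 and 0.0806) and kept it under the other settings that used all libraries, apart from the block. The cause of these shifts was not tested. The sign turned for Cd22 without unlasered library 3 and without lasered library 4 (0.029), and for Cd33 without unlasered library 3 and with median-of-ratios scaling (0.021). With 1 library left out, the log2 fold change ranged from -0.51 to 0.076 for Cd22 and from -0.20 to 0.12 for Cd33. With the longest coding transcript, the ratio of Siglech to Siglece was 2.95 in unlasered and 1.43 in lasered libraries.

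The replicate numbers 1 to 3 occur in both groups, but libraries with the same number did not deviate together (correlations from -0.183 to -0.0234 over 3 pairs), so the numbers were not taken as pairs. A replicate block left 2 genes higher and 1 lower of all genes, 0 higher and 0 lower of the 7 genes, and 0 and 0 in the pathway lists. Lasered library 4 has no unlasered library of the same number, so the block takes it out of the comparison. The block also leaves few degrees of freedom, so it is not a separate check of the calls. Under it the log2 fold changes of Siglec1, Siglece and Siglecf were 2.07, 0.69 and 1.120 (adjusted p 0.101, 0.11 and 0.0917), and that of Cd22 was 0.029. Siglecg had 9 reads or fewer in 4 of the 7 libraries.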
